A study of Mus musculus with 2 samples.

Results

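Goblet cells are the mucus-secreting cells of the intestinal epithelium, and 10 genes of their secretory programme were followed in the intestine of newborn mice, out of 43346 Ensembl genes in the tables. They were taken by gene symbol and comprised 8 genes on the mucus side (Muc2, Tff3, Fcgbp, Clca1, Zg16, Spink4, Klk1 and Agr2) and the 2 transcription factors of the secretory lineage, Atoh1 and Spdef. The tables held total RNA-seq of whole intestine from 2 B6NCrl pups of 1 litter at age 0 days, named pup 1 and pup 2 after the labels. Both pups form 1 group with no genotype or treatment contrast, sex was not collected, and no source used here names the segments of intestine taken. Each library was made from 10 ng of RNA longer than 200 nt, and the expected counts over genes summed to 44568098 in pup 1 and 34797495 in pup 2. With 2 libraries of 1 group no condition could be tested, since an exact two-sided sign-flip test over 2 pups cannot go below p = 0.5. Levels are therefore given per pup, and differences between pups carry a 95% interval that covers counting error only.

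Intestinal mucus is a hydrated gel built on a polymer of the mucin Muc2, which goblet cells fold in the endoplasmic reticulum, glycosylate in the Golgi and store in granules before release. Other secreted proteins join the gel or act on it. The basic helix-loop-helix factor Atoh1 commits epithelial progenitors to the secretory lineages when Notch signalling is low, and the ETS-family factor Spdef acts downstream of it in the maturation of goblet and Paneth cells.

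All 10 genes were detected at 1 TPM (a level per transcript length, scaled to the library) or more in both pups, where 32.0% of all Ensembl genes and 59.1% of the 21461 nuclear protein-coding genes were. The mucus side stood far above the factors: the median log2(TPM + 0.1) of the 8 mucus genes exceeded that of the 2 factors by 4.99 in pup 1 and 5.18 in pup 2. The mean difference of 5.09 ± 0.13 (SD, n = 2) is a 34.0-fold difference in level. Without length normalisation, on counts alone, it was 19.6-fold. The 10 genes summed to 3510 TPM in pup 1 and 3172 TPM in pup 2, or 3341 ± 239 TPM (SD, n = 2), which was 0.448% and 0.405% of the TPM of nuclear protein-coding genes. The factors gave 16 TPM of that sum in pup 1 and 12.5 TPM in pup 2. In whole tissue, fewer goblet cells and less RNA per goblet cell cannot be told apart.

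**Figure D1:**
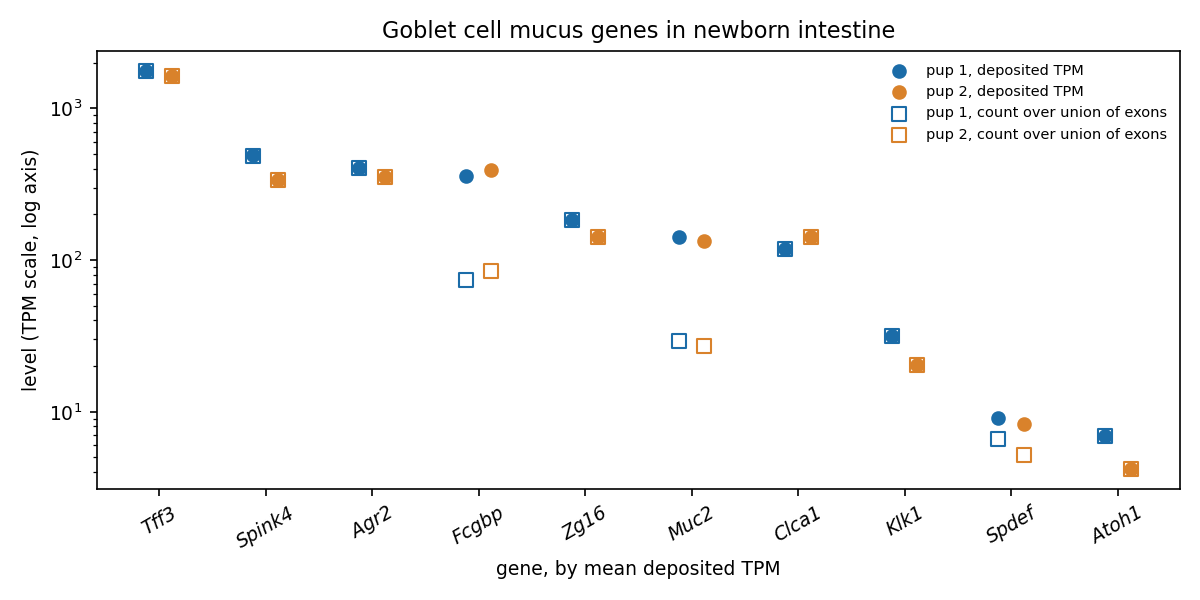
Level of each gene in pup 1 (blue, left) and pup 2 (orange, right) on a log axis. Filled circles are the deposited TPM. Open squares are the same counts divided by the union of exons of transcripts with 1% or more of the gene's TPM in both pups. Tff3 stands alone at the top, the 2 factors at the bottom, and the circles and squares part for Fcgbp, Muc2 and Spdef.

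Tff3, the trefoil peptide that goblet cells release with mucin and that is known for its part in mucosal repair, had the highest level of the set. It is ENSMUSG00000024029.4, on the minus strand of chromosome 17 from 31125306 to 31129646 (GRCm38, the same assembly as mm10). Tff3 had 1771 TPM in pup 1 and 1640.0 TPM in pup 2, from 25096 and 17804 reads. By mean TPM it ranked 34th among nuclear protein-coding genes, and it alone made up 50.5% of the summed level of the 10 genes in pup 1 and 51.7% in pup 2. The peptide is small, and its whole coding sequence is shown because this 1 short message carried the largest share of the summed level. The sequence is that of the only annotated transcript of the gene (ENSMUST00000024827.4, 493 nt) in GENCODE M21, 5′ to 3′ on the coding strand, with the start and stop codons in capitals.
Tff3 coding sequence: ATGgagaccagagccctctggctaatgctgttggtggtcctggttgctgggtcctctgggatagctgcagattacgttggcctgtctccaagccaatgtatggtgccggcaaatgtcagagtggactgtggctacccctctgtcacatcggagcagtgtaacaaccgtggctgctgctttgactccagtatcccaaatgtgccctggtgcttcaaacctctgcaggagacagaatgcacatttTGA

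Spink4, a secreted protein of the Kazal-type protease inhibitor family that is made by goblet cells, came next. Spink4 (ENSMUSG00000028415.4, chromosome 4, plus strand, 40920052 to 40931395) had 489.7 TPM in pup 1 and 336 TPM in pup 2. It lay 4.20-fold below Tff3 as a mean over pups, and the ranges of the pups did not overlap. Agr2, a protein disulfide isomerase of the endoplasmic reticulum that mice need in order to make Muc2, had 403 TPM in pup 1 and 352 TPM in pup 2. Agr2 is ENSMUSG00000020581.7, on the plus strand of chromosome 12 from 35992907 to 36004087. Fcgbp, a large protein of repeated von Willebrand factor D domains found in intestinal mucus, had 356 TPM in pup 1 and 395 TPM in pup 2. Fcgbp is ENSMUSG00000047730.13, on the plus strand of chromosome 7 from 28071236 to 28120862. Spink4 and Agr2 overlapped between pups, and so did Agr2 and Fcgbp, so these neighbours in the order of deposited TPM did not differ beyond the spread of the pups.

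Zg16, a lectin-like secreted protein that binds the cell wall of Gram-positive bacteria, had 182.7 TPM in pup 1 and 141.1 TPM in pup 2. Its only deposited transcript lies on the minus strand of chromosome 7 from 127050156 to 127051977 (ENSMUSG00000049350.5). Muc2, the gel-forming mucin of the intestine, had 140.8 TPM in pup 1 and 134 TPM in pup 2. Clca1, a secreted metalloprotease that processes Muc2 in mucus, had 118 TPM in pup 1 and 141.0 TPM in pup 2 (ENSMUSG00000028255.5, chromosome 3, minus strand, 145003817 to 145032776). Fcgbp exceeded Zg16 2.34-fold on deposited TPM with no overlap between the pups' ranges, and over the union of its exons it lay 2.03-fold below Zg16. Zg16 exceeded Muc2 in each pup, but the mean log2 difference of 0.22 ± 0.21 (SD, n = 2) was about as large as its spread. On deposited TPM, Muc2 and Clca1 overlapped between pups and changed places from pup to pup.

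Klk1, the tissue kallikrein, a serine protease made by some goblet cells, was the lowest on the mucus side at 31.4 TPM in pup 1 and 20.3 TPM in pup 2. It lay 5.11-fold below Clca1, with ranges that did not overlap. Klk1 (ENSMUSG00000063903.4, chromosome 7, plus strand, 44225360 to 44229618) belongs to a cluster of related kallikrein genes. Of the 9 Klk1b genes with the same coding length as Klk1, Klk1b5 is the closest to it. Those of another coding length were not compared. All 13 annotated Klk1b genes were measured and all were under 0.1 TPM in both pups. Klk1b5 and Klk1b11, the copies that share 100-nt stretches with Klk1, had 0 reads in both pups. The coding sequences of Klk1 and Klk1b5 are identical at 748 of 786 positions (95.2%), and 52 of the 855 windows of 100 nt in Klk1 transcripts (6.08%) also occur in Klk1b5 or Klk1b11. The posterior SD of the deposited Klk1 count was 0.63 of 877 reads in pup 1 and 0.31 of 435 reads in pup 2. The first 100 coding bases of both genes are shown to make the likeness visible, from GENCODE M21 transcripts, 5′ to 3′, with the 2 positions that differ in capitals.
Klk1 coding bases 1 to 100: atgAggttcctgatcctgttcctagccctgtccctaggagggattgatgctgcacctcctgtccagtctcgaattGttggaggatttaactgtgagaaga
Klk1b5 coding bases 1 to 100: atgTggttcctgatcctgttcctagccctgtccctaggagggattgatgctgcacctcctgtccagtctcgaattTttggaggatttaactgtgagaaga

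Among the other members, 167 of 10590 windows of 100 nt in Fcgbp transcripts (1.58%) also occur in the gene 9530053A07Rik, which had 1.89 TPM in pup 1 and 1.85 TPM in pup 2. The other 8 members shared no such window with another gene. Klk1 overlaps the pseudogene Gm10109 on the opposite strand, which had 3 reads in each pup, and Zg16 overlaps the small nuclear RNA gene Gm22747, which had 0 reads in each pup.

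Spdef and Atoh1 were measured at single-digit TPM. Spdef (ENSMUSG00000024215.9, chromosome 17, minus strand, 27714352 to 27728955) had 9.11 TPM in pup 1 and 8.29 TPM in pup 2, from 494 and 295 reads. Atoh1 (ENSMUSG00000073043.4, chromosome 6, plus strand, 64729125 to 64731245) had 6.89 TPM in pup 1 and 4.21 TPM in pup 2, from 493 and 231 reads. Spdef exceeded Atoh1 1.32-fold in pup 1 and 1.97-fold in pup 2, with no overlap of the ranges. With counts over the union of exons this order was lost, at 0.961-fold in pup 1 and 1.22-fold in pup 2 with overlapping ranges. By mean TPM they ranked 7536th and 8967th among nuclear protein-coding genes, while the mucus genes ranked between 34th and 4041st.

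Upstream windows of RefSeq starts (GRCm38.p6) were available for 6 of the 10 genes, namely Muc2, Fcgbp, Klk1, Agr2, Atoh1 and Spdef, and not for Tff3, Clca1, Zg16 and Spink4. The 250 bases before the start were searched on both strands for CAGCTG and CAGATG, E-box letters of the kind that helix-loop-helix factors bind, and for CGGATG, which holds the GGAT core that Spdef prefers. TGTTTAC, a forkhead motif, and TATAAA were searched as well. Over 32851 such windows, CAGCTG occurred in 13.0%, CAGATG in 14.4%, CGGATG in 4.90%, TGTTTAC in 3.17% and TATAAA in 12.4%. The Muc2 window held 1 CAGCTG, 1 CGGATG and 1 TATAAA, that of Fcgbp held 1 CAGCTG and that of Klk1 held 1 CAGATG. None of the 5 motifs was in the Agr2, Atoh1 and Spdef windows. A match is no evidence of binding, and a window without one says only that these letters are not in it. The windows of the mucin and of the 2 factors are shown, since they are the ends of the programme that the levels set apart, 5′ to 3′ on the strand of the gene with motif matches in capitals.
Muc2, chr7:141690090-141690339, plus strand: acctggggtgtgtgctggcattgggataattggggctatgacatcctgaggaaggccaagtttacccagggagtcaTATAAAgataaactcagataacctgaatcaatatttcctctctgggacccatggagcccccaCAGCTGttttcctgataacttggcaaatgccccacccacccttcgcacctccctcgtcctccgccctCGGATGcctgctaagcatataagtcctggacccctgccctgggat
Spdef, chr17:27728952-27729201, minus strand: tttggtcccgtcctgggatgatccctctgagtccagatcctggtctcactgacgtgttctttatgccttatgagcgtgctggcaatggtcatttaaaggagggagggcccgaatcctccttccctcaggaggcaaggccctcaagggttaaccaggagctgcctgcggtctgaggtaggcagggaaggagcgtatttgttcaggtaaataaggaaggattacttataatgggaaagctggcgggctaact
Atoh1, chr6:64728875-64729124, plus strand: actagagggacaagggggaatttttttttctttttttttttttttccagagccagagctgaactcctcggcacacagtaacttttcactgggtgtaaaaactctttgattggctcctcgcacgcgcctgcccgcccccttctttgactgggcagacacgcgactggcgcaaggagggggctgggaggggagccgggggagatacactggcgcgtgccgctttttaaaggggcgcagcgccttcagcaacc

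The TATAAA match in the Muc2 window lay nearer its far end than the start of the gene. Only these exact letters were searched, so variants such as the tataag close to the start are not marked.

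For 3 of the 10 genes the deposited level depended on how the gene model is cut. Muc2 (ENSMUSG00000025515.11, chromosome 7, plus strand, 141690340 to 141754693) is annotated as a fragmented locus, with 8 transcripts that fall into 5 pieces which do not overlap. From 5′ to 3′ the pieces had 17.8, 26.7, 20.95, 11.5 and 63.9 TPM in pup 1 and 14.4, 21.5, 24.8, 10.1 and 63.3 TPM in pup 2. The last piece was the highest in both pups at 63.6 ± 0.431 TPM (SD, n = 2), and the first had 16.1 ± 2.44 TPM. Since the gene's TPM is the sum over its transcripts, an RNA molecule that spans all 5 pieces is counted in each of them. The union of exons was taken, for every gene, over transcripts with 1% or more of the gene's TPM in both pups, and all counts of the gene were kept. Divided by this union (7127 nt for Muc2), the same counts gave 29.3 TPM in pup 1 and 27.2 TPM in pup 2. That is a level 4.86-fold lower than deposited.

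Fcgbp had a like pattern through short transcripts at its 3′ end. A 931-nt processed transcript (ENSMUST00000131090.1) took 56.8% of the gene's TPM in pup 1 and 56.1% in pup 2, and a 1123-nt transcript with a retained intron took 27.6% and 27.7% in the same pups. The full-length 7928-nt coding transcript (ENSMUST00000076648.7) had 31.7 TPM in pup 1 and 38.3 TPM in pup 2, or 8.89% and 9.70% of the gene. The union of exons of Fcgbp held 4 of its 6 transcripts and 8527 nt, where the exons of all its transcripts cover 10497 nt. On that union, Fcgbp had 74.1 TPM in pup 1 and 84.6 TPM in pup 2, 4.73-fold lower than deposited. Agr2 then exceeded Fcgbp 4.76-fold and Clca1 exceeded Muc2 4.56-fold, with no overlap between the pups' ranges. Fcgbp then ranked sixth of the set and Muc2 seventh, below Zg16 and Clca1, while Tff3, Spink4 and Agr2 stayed on top in that order.

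**Figure D2:**
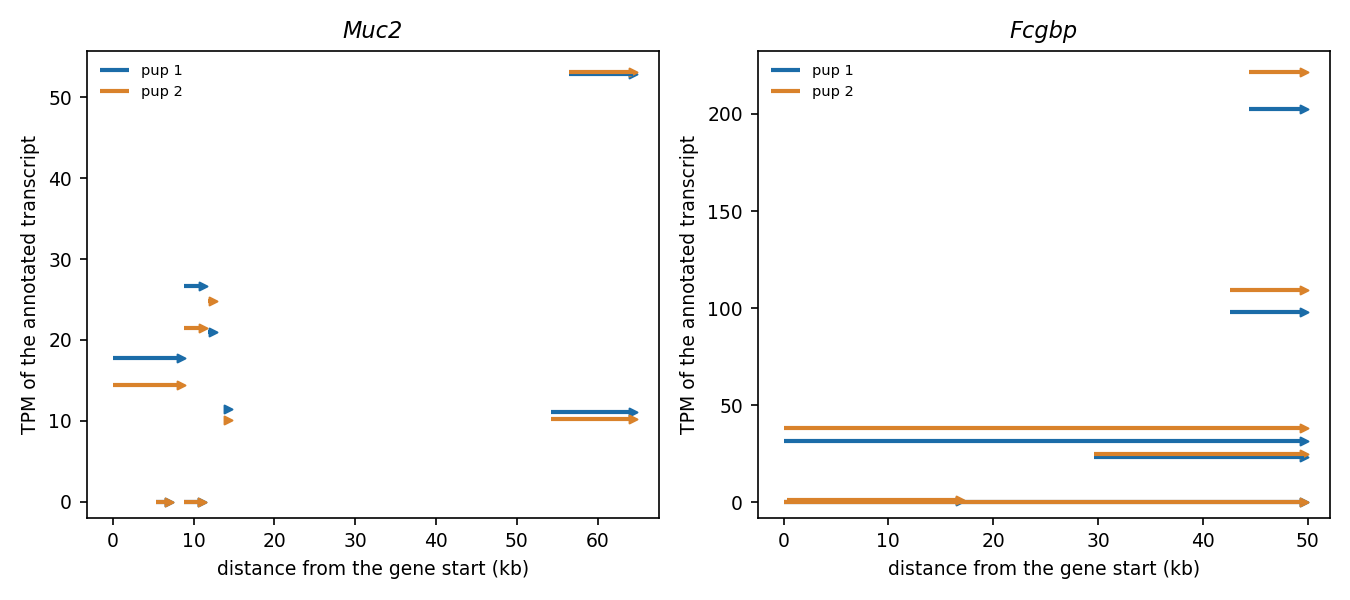
TPM of each annotated transcript of Muc2 (left) and Fcgbp (right) in pup 1 (blue) and pup 2 (orange), drawn from its start to its end along the gene in kb; arrowheads mark the 3′ end. In both genes the highest transcript lies at the 3′ end, at 52.8 and 53.1 TPM in Muc2 and at 202 and 221 TPM in Fcgbp (pup 1 and pup 2).

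Spdef was split between a coding transcript and a shorter one with a retained intron. The 1824-nt coding transcript (ENSMUST00000025054.4) had 7.07 TPM in pup 1 and 4.45 TPM in pup 2, which was 77.6% and 53.7% of the gene. The 854-nt retained-intron transcript (ENSMUST00000127622.1) had 2.04 TPM in pup 1 and 3.62 TPM in pup 2, or 22.4% and 43.7% of the gene, from 55.3 and 75.3 reads. The gene's TPM in each pup thus came from unlike mixtures of transcripts that differ in length, so that TPM and counts of Spdef differ between pups by different amounts. In the other 7 genes, 1 transcript held 99% or more of the gene's TPM in both pups.

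Of the 10 genes, 6 had a ratio between the littermates outside the 5th to 95th percentile of genes with at least 500 summed reads, and 4 lay within it. On expected counts scaled to library size, 8 of the 10 genes were higher in pup 1 and Fcgbp and Clca1 were lower. Of the 19088 genes with a summed count of 10 or more, 9828 were higher in pup 1, and of the 11084 with 500 or more, 6024 were. The median log2 ratio of pup 1 over pup 2 was 0.34 for the 10 genes, beside 0.0062 over the 19088 genes. None of the 10 was over 2-fold apart by the whole of its interval, where 0.796% of all 19088 genes were. The interval left out 1 in 10 of 10 genes, against 29.6% of all genes and 39.8% of the 11084 genes with a summed count of 500 or more. Such an interval holds the counting error of 2 libraries and not the variation among littermates.

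Among the secreted proteins, Klk1 was 1.62-fold higher in pup 1 (95% interval 1.44 to 1.82), Spink4 1.53-fold (1.46 to 1.60) and Zg16 1.35-fold (1.28 to 1.43). As far apart in either direction were 0.505%, 0.677% and 1.79% of genes with a summed count of 500 or more. Agr2 was 1.20-fold higher in pup 1 (1.16 to 1.24), and 7.75% of those genes were as far apart. Tff3 and Muc2, the leading peptide and the mucin itself, were both 1.13-fold higher in pup 1 (1.11 to 1.15 and 1.09 to 1.17), well within the 5th to 95th percentile of those genes, which ran from -0.23 to 0.24 on the log2 scale. Fcgbp was lower in pup 1 at a ratio of 0.918 (0.900 to 0.935) and Clca1 at 0.878 (0.855 to 0.901), also within that range. The ratio of Tff3 to Muc2 levels on deposited TPM was 12.6 in pup 1 and 12.2 in pup 2, and over the union of exons it was 60.3 in pup 1 and 60.0 in pup 2.

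Both factors were higher in pup 1. Atoh1 was 1.71-fold higher (1.46 to 2.01), the furthest apart of the 10 genes, and 0.406% of genes with a summed count of 500 or more were as far apart. Spdef was 1.34-fold higher (1.16 to 1.56), with 1.98% as far apart. Atoh1 and Spdef had the lowest counts of the set, with Klk1 next, and these 3 genes had the widest intervals.

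**Figure D3:**
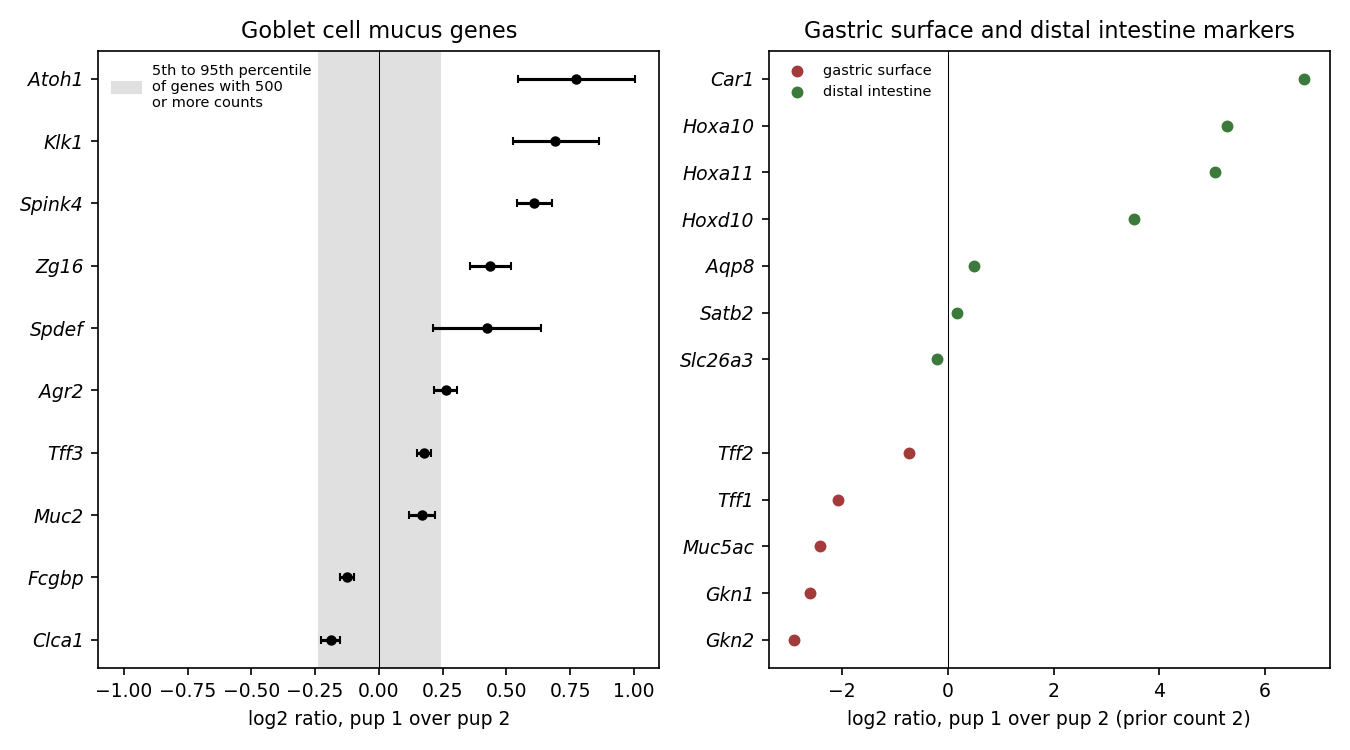
Left, log2 ratio of pup 1 over pup 2 on library-scaled counts for each gene, with exact 95% counting intervals and, in grey, the 5th to 95th percentile of genes with 500 or more counts. Right, the same ratio with a prior count of 2 for gastric surface and distal intestine markers with a summed count of 10 or more. Atoh1, Klk1, Spink4, Zg16, Spdef and Agr2 lie right of the grey band, and the gastric markers lie left of 0; Car1 and Hoxa11 had 0 reads in pup 2, so their points depend on the prior count.

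Markers of other regions of the gut differed between the pups. Of 5 gastric surface markers, 4 were over 2-fold lower in pup 1 (Tff1, Gkn1, Gkn2 and Muc5ac), where 0.430% of all genes were. The 5 summed to 154 TPM in pup 1 and 459 TPM in pup 2. Of 10 markers of distal intestine, 4 were over 2-fold higher in pup 1, where 0.367% of all genes were. Hoxa10 had 377 reads in pup 1 and 6 in pup 2, Hoxd10 80.8 and 4, Hoxa11 70.7 and 0, and Car1 235 and 0. Hoxa10 and Hoxa11 lie among overlapping genes of their cluster, where reads could be shared with neighbours. The posterior SD of the deposited count was 0 for Hoxa10 in both pups and 2.45 of 70.7 reads for Hoxa11 in pup 1. The distal list as a whole summed to 90.7 TPM in pup 1 and 80.4 TPM in pup 2, most of it in Slc26a3 and Aqp8, and Hoxb13 was at 0 in both pups. Of 7 markers of exocrine pancreas, all were lower in pup 1 and none over 2-fold, with sums of 213 TPM in pup 1 and 301 TPM in pup 2. Epithelial markers, with Cldn7 and Epcam the highest, summed to 3124 TPM in pup 1 and 2920 TPM in pup 2. On library-scaled counts 4 of these 5 were higher in pup 1, as were 9828 of the 19088 genes with a summed count of 10 or more. Enterocyte markers summed to 39929 and 35756 TPM, most of it in Apoa4 and Fabp2. Of the 6 enterocyte markers, 4 were higher in pup 1 on library-scaled counts and the rest were lower. The part of these differences in the between-pup ratios of the mucus genes was not tested.

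The paralogs of the secreted members had unlike levels. Of the trefoil family, Tff1 had 50.4 TPM in pup 1 and 223 TPM in pup 2, and Tff2 had 93.4 and 163 TPM. Both are peptides best known from the stomach, and both were lower in pup 1, Tff1 at a ratio of 0.236 (0.217 to 0.257) and Tff2 at 0.600 (0.563 to 0.641). Tff3 exceeded Tff1 35.2-fold in pup 1 and 7.35-fold in pup 2, and Tff2 19.0-fold and 10.1-fold. Of the other gel-forming mucins, Muc6 had 7.89 TPM in pup 1 and 7.14 TPM in pup 2, and Muc2 exceeded it 17.9-fold and 18.8-fold on deposited TPM. Muc5b had 9 reads in pup 1 and 102 in pup 2, a ratio of 0.0707 (0.0315 to 0.140), and Muc5ac had 1 and 12 reads, a ratio of 0.0668 (0.00156 to 0.452). Muc19 had 0 reads in both pups, which allows up to 3 reads in each.

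In the CLCA family, 6 of 7 genes were measured, and Clca1 was not the highest. Clca4b had 624 TPM in pup 1 and 623 TPM in pup 2, so that Clca1 stood at 0.190 of its level in pup 1 and 0.226 in pup 2. Clca3a1 had 3.13 and 3.2 TPM, Clca3b 2.88 and 2.0 TPM, and Clca4a 1.5 and 0.77 TPM in the same pups. None of the 6 was over 2-fold apart by its whole interval, where 0.796% of all 19088 genes were.

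Other genes linked to goblet cells covered a wide range. Of 15, 11 were detected in both pups, beside 59.1% of nuclear protein-coding genes. Guca2a, which encodes guanylin, a regulator of fluid secretion, had 1590.3 TPM in pup 1 and 1729 TPM in pup 2, near the level of Tff3. The next were Fxyd3 (38.2 and 32.1 TPM), Rep15 (13.5 and 15.0 TPM) and Tpsg1 (10.7 and 8.85 TPM). Best2, a bestrophin channel of colonic goblet cells, had 35 reads in pup 1 and 0 in pup 2. It was 9.35-fold higher in pup 1 when 3 reads are allowed in pup 2 and the 35 are taken as exact. The lower limit of the exact counting interval of its ratio was 7.21-fold. Retnlb, a goblet cell product of the colon and named here after its values were seen, had 3 and 2 reads.

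The folding and stress machinery of the endoplasmic reticulum was detected throughout, at 19 of 19 genes, beside 59.1% of nuclear protein-coding genes. Its median was 73.4 TPM in pup 1 and 74.6 TPM in pup 2. P4hb and Pdia3 are disulfide isomerases, Calr is a lectin chaperone and Hspa5 the reticulum's Hsp70. P4hb had 2064 TPM in pup 1 and 2046 TPM in pup 2, Calr 406 and 380.0 TPM, Hspa5 365 and 363 TPM, and Pdia3 280 and 257 TPM. These 4 differed between pups by less than Agr2, at ratios between 1.06 and 1.14. Ern2, the epithelial form of the stress sensor IRE1 and named after its values were seen, had 3.14 TPM in pup 1 and 3.67 TPM in pup 2.

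Of 17 genes of mucin O-glycosylation, 13 were detected in both pups, beside 59.1% of nuclear protein-coding genes. The transferases that start the glycan, Galnt1 (61.8 TPM in pup 1 and 65.4 TPM in pup 2) and Galnt2 (35.3 and 39.0 TPM), the core 1 chaperone C1galt1c1 (55.3 and 49.6 TPM) and the sialyltransferase St3gal1 (35.8 and 40.2 TPM) were the highest. None of the 17 was over 2-fold apart between pups, where 0.796% of all 19088 genes were.

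Of 18 regulators of the secretory lineage, 14 were detected in both pups, beside 59.1% of nuclear protein-coding genes. None of the 18 was over 2-fold apart, where 0.796% of all 19088 genes were. The epithelial ETS factor Elf3 had 132 TPM in pup 1 and 128 TPM in pup 2, and Hes6 had 67.5 and 68.1 TPM. Hes1, the Notch target that represses Atoh1, had 42.6 and 35.4 TPM, and Klf4, a factor of goblet cell differentiation, had 18.95 and 22.8 TPM. Hes1 exceeded Atoh1 6.18-fold in pup 1 and 8.40-fold in pup 2. Both genes were higher in pup 1, Hes1 at a ratio of 1.29 (1.20 to 1.38).

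Of 16 genes of mucus release and hydration, 14 were detected in both pups, beside 59.1% of nuclear protein-coding genes. None of the 16 was over 2-fold apart, where 0.796% of all 19088 genes were. The granule fusion proteins Vamp8 (362 TPM in pup 1 and 364 TPM in pup 2) and Stxbp2 (130 and 147 TPM) were the highest. The meprin genes Mep1a (118 and 123 TPM) and Mep1b (117 and 125 TPM) followed, and the meprin beta protease that Mep1b encodes is known to release Muc2 from the epithelium. Median log2 ratios of pup 1 over pup 2 were 0.11 for the reticulum list, 0.05 for O-glycosylation, 0.06 for the regulators and 0.02 for release and hydration, beside 0.22 for the 8 mucus genes and 0.60 for the 2 factors. The other genes linked to goblet cells had a median of 0.26 and the other CLCA genes 0.23, near that of the mucus genes. The other trefoil genes had -1.41. The median of the other gel-forming mucins, -2.42, is the value of Muc5ac alone, from 1 and 12 reads. It lay between Muc5b at -3.53, from 9 and 102 reads, and Muc6 at 0.19, from 2333 and 1636 reads. It therefore does not describe the mucins as a family.

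**Figure D4:**
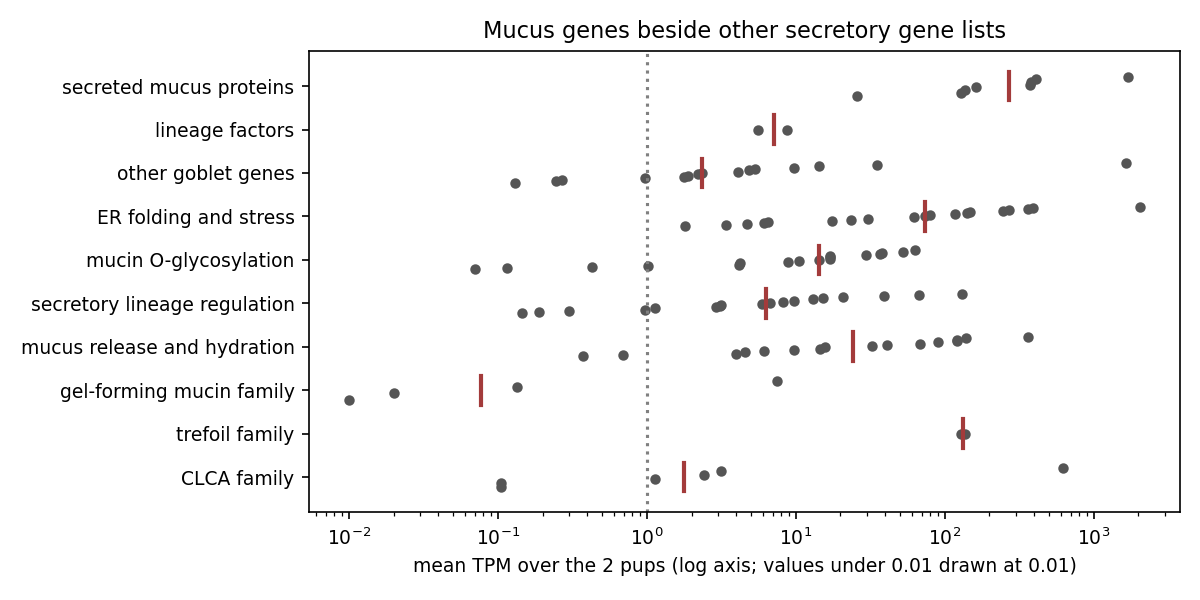
Mean TPM over both pups of each gene (points) by list on a log axis, with the list's median in red; the dotted line marks 1 TPM and values under 0.01 are drawn at 0.01. The secreted mucus proteins lie between 25.9 and 1706 TPM, the 2 lineage factors at 5.55 and 8.70 TPM.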

How the data were processed

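Total RNA-seq libraries of 2 littermates form 1 group, as biological replicates 1 and 2 in the labels. The deposited expected counts are estimates, whole or not, in which shared reads are divided, and the deposited TPM are scaled to effective length and to all features, per the file headers. The deposited isoform percent is a transcript's part of the TPM of its gene. In every transcript of 500 nt or more, length and effective length differ by 99 nt. The assembly was mm10 with GENCODE M4, per a text file deposited beside them. Aligner, quantifier, versions and strand setting: not given in the sources used here.

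Members were matched by gene identifier to GENCODE M21 names on GRCm38, which matched 42462 of 43346 Ensembl genes. The members, lists and naming rule were chosen with earlier results of these data known. Named from lists were the 4 highest genes, up to 4 under 0.1 TPM in both pups and those over 2-fold apart, and from markers the 2 highest, those at 0 in both pups and those over 2-fold apart; Tff1, Tff2 and Muc5ac stand on 2 lists.

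Ratios of pup 1 over pup 2 came from rounded expected counts with TMM library sizes (edgeR 4.0.16 in R 4.3.3) and exact Clopper-Pearson 95% intervals (SciPy 1.17.1), with a prior count of 2 for log2 ratios. A gene was called over 2-fold apart when its interval lay wholly above 2 or below 0.5. The intervals hold counting error alone. PCR copies counted without molecular identifiers are not independent, so the intervals can be too narrow even for that error. A count of 0 allows 3 reads, or 0.0682 CPM in pup 1 and 0.0851 CPM in pup 2. The procedure was tested on simulated data. Alternatives were total-count and DESeq2 1.42.0 scaling, other pseudocounts and cut-offs, posterior means, counts without length, no Agr2, and each pup left out.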

Additional observations from a re-analysis of the deposited data

How the results depend on the processing

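The difference of the mucus genes over the lineage factors, 5.09 on the log2 scale, was 4.91 with a pseudocount of 1 TPM, 4.30 without length normalisation and 4.53 without Agr2. It was 4.66 with counts over the union of exons of transcripts with 1% or more of the gene's TPM in both pups, an alternative chosen after seeing the data. With either pup left out it was 4.99 to 5.18. The summed level, 3341 TPM, was 4262 TPM when rescaled to nuclear protein-coding genes, 2932 TPM over the union of exons and 3172 to 3510 TPM with either pup left out. All 10 genes were detected at 0.5 TPM and 9 at 5 TPM, Atoh1 being under it in pup 2. The number of genes over 2-fold apart was 0 under all 5 alternatives, including the ratio itself past 2-fold, and their median log2 ratio ran from 0.30 to 0.34. Of 40 between-pup ratios under other settings, 37 moved by less than 0.5 times the log2 width of their counting interval. The 3 that moved were those of Tff3, Fcgbp and Clca1 under total-count scaling, at 0.14, -0.16 and -0.23 on the log2 scale. With the posterior means and the union of exons, 17 of 20 levels moved by less than the spread of the pups, and those of Muc2, Fcgbp and Spdef moved over the union of exons. There the log2 ratio of Fcgbp over Zg16 reversed from 1.22 to -1.02 and that of Spdef over Atoh1 was 0.11 in place of 0.69; the direction of no between-pup ratio reversed. No paired analysis was possible because there is 1 group, and with a pup left out no between-pup ratio exists.

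With 2 littermates of 1 litter, the SD rests on 2 values and variation among animals cannot be told apart from dissection or library differences. Depth limits Atoh1, Spdef and Klk1 most, at 231 to 877 reads a pup.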

Other observations

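Markers of the other secretory cells of the epithelium were measured in both pups. Of 5 Paneth cell markers all were detected, led by the defensin genes Defa24 (602 TPM in pup 1 and 601 TPM in pup 2) and Defa17 (242 and 258 TPM). The rest, named after their values were seen, were far lower: Lyz1 (6.16 and 7.73 TPM), Ang4 (9.89 and 5.77 TPM) and Mmp7 (7.09 and 5.66 TPM). Of 5 enteroendocrine markers all were detected, led by secretin (Sct, 294 and 277 TPM) and Gip (115 and 120.5 TPM). Of 5 tuft cell markers only Dclk1 passed 1 TPM in each pup (2.41 and 2.18 TPM), and Gnat3 and Il25 had 0 reads in both. Of nuclear protein-coding genes, 59.1% were detected in both pups. None of these 15 marker genes was over 2-fold apart between pups, where 0.796% of all 19088 genes were.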
